A study of Mus musculus with 60 samples.

Results

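The arrays described here are 4 arrays of an islet series that the submitters left out of their study. They carry transcripts of lymphocytes and are low in islet endocrine ones. They are MycON exenatide 4 h replicate 3, MycOFF water 8 h replicate 2, MycOFF water 16 h replicate 1 and MycOFF water 72 h replicate 2. They were set against the 8 kept arrays of the same 4 groups, 2 in each group, out of 60 arrays in the series. The 4 arrays were chosen by their measured lymphocyte signal, which the genes Ms4a1, Ighm and Cd3e were to mark, and the same arrays give every value below. The contrast is therefore given as a description, with no test.

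All mice were male pIns-MYCERTAM transgenics on a CBA-C57BL/6 background, which make a fusion of MYC with a tamoxifen-responsive receptor part under an insulin promoter, that is, in beta cells. The controls carried the transgene too. MycON exenatide mice were given a daily intraperitoneal dose of 1 mg of 4-hydroxytamoxifen, which activates the fusion, together with exendin-4 (exenatide), an agonist of the GLP-1 receptor, at 50 µg/kg under the skin. MycOFF water mice received peanut oil and water. Exendin-4 or water was injected 2 times a day from 2 days before. Tissue was taken 4 h, 8 h, 16 h or 72 h after the start, per the labels. One label puts the age at 8 to 12 weeks and another at 3 months. Islets were cut by laser from 15 µm frozen pancreas sections, which separates them from the exocrine tissue around them. The labels call the 3 arrays of a group biological replicates but tie none of them to a named animal.

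Islets of Langerhans are clusters of endocrine cells, mostly insulin-making beta cells with fewer alpha, delta and PP cells, and they normally hold few lymphocytes. A B cell carries an immunoglobulin receptor coupled to the signalling chains CD79A and CD79B, and a plasma cell secretes the same molecule as antibody. A T cell carries a T cell receptor coupled to the CD3 chains. In spleen, lymph nodes and tertiary lymphoid tissue, stromal cells that make the chemokine CXCL13 attract B cells into follicles, and cells with the receptor CCR7 gather in T cell zones.

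Each deposited value is a log2 deviation from the median of that probe set over the 60 arrays, so 0 is the level of the median array and no absolute level can be read. A deviation below is such a value in 1 array. A difference is the deviation of a lymphoid array minus the mean of the 2 kept arrays of its own group, so that treatment and time are matched, and a value with ± is the mean of the 4 differences with its standard deviation (SD, n = 4). A gene is called higher when all 4 lymphoid arrays lie above all 8 kept arrays and the mean difference is at least 1.0, which is 2-fold, and lower by the same rule turned round.

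By this rule 1768 of 18193 genes were higher (9.72%) and 1222 were lower (6.72%). These shares follow from the choice of the arrays, and nothing is read from them beyond their size. Each list count below is to be set against them. The mean difference was at least 4-fold for 1158 of the higher (6.37% of all genes) and 753 of the lower genes (4.14%). It was at least 16-fold for 328 (1.80%) and 217 (1.19%), and at least 64-fold for 62 (0.341%) and 20 (0.11%). Over all genes the median mean difference was -0.05. The median gene had an SD of 0.34 between kept arrays of 1 group and an SD of 0.46 between the 4 differences. Deviations spread more widely within a lymphoid array (SD 0.97 to 1.21 over probe sets) than within a kept array (0.37 to 0.60).

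Of the other 4 arrays that the submitters left out, 3 had means of 9.90 to 9.99 over 12 skin and muscle genes, and the other one had 1.86. Their B cell list means were 0.10 to 0.35 and their T cell list means 0.33 to 0.89, below each of the 4 lymphoid arrays. One kept array, MycOFF water 72 h replicate 3, had a skin and muscle list mean of 2.06. The 4 lymphoid arrays lay between -0.26 and 0.05 on that list.

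Of the 3 marker genes, Ms4a1 and Ighm stood far apart in all 4 arrays. Ms4a1, which encodes the B cell surface protein CD20, had deviations of 7.80 in the MycON exenatide 4 h array, 10.54 in the MycOFF water 8 h array, 9.86 at 16 h and 9.97 at 72 h. In the 8 kept arrays it lay between -0.04 and 0.05, with a median of -0.00. The lowest lymphoid array was thus far above every kept array, and among all 56 other arrays of the series the highest deviation was 0.22. The mean difference was 9.54 ± 1.21.

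Ighm, the heavy chain constant gene of IgM, had deviations of 11.97, 11.22, 11.18 and 12.76 in the arrays of 4, 8, 16 and 72 h. Its kept arrays ranged from -0.03 to 3.30, with a median of 0.01. The groups did not overlap, and the mean difference was 11.03 ± 0.89, the largest among all genes. Ighm was not silent elsewhere: MycOFF exenatide 72 h replicate 2, a kept array, reached 9.33. Of the 11 probe sets annotated to Ighm, the least changed had a mean difference of -0.05, so the value holds for the probe set used here and not for all of them.

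Cd3e, which encodes a CD3 chain of the T cell receptor complex, went against the label. Its deviations were 2.19 at 4 h, 1.47 at 8 h, -0.03 at 16 h and 0.73 at 72 h, against -0.04 to 0.17 in the kept arrays (median 0.01). The 16 h array lay within the kept arrays, and 50 of the 56 other arrays were at or above it. The array has 1 probe set for Cd3e. The other CD3 genes behaved differently. Cd3d had 8.24, 6.28, 4.92 and 1.86 in the lymphoid arrays, against at most 0.10 in the kept ones, and Cd3g had 7.86, 5.99, 4.86 and 3.85, against at most 0.17. The T cell signal was therefore read from the whole list of T cell genes and not from Cd3e.

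**Figure D1:**
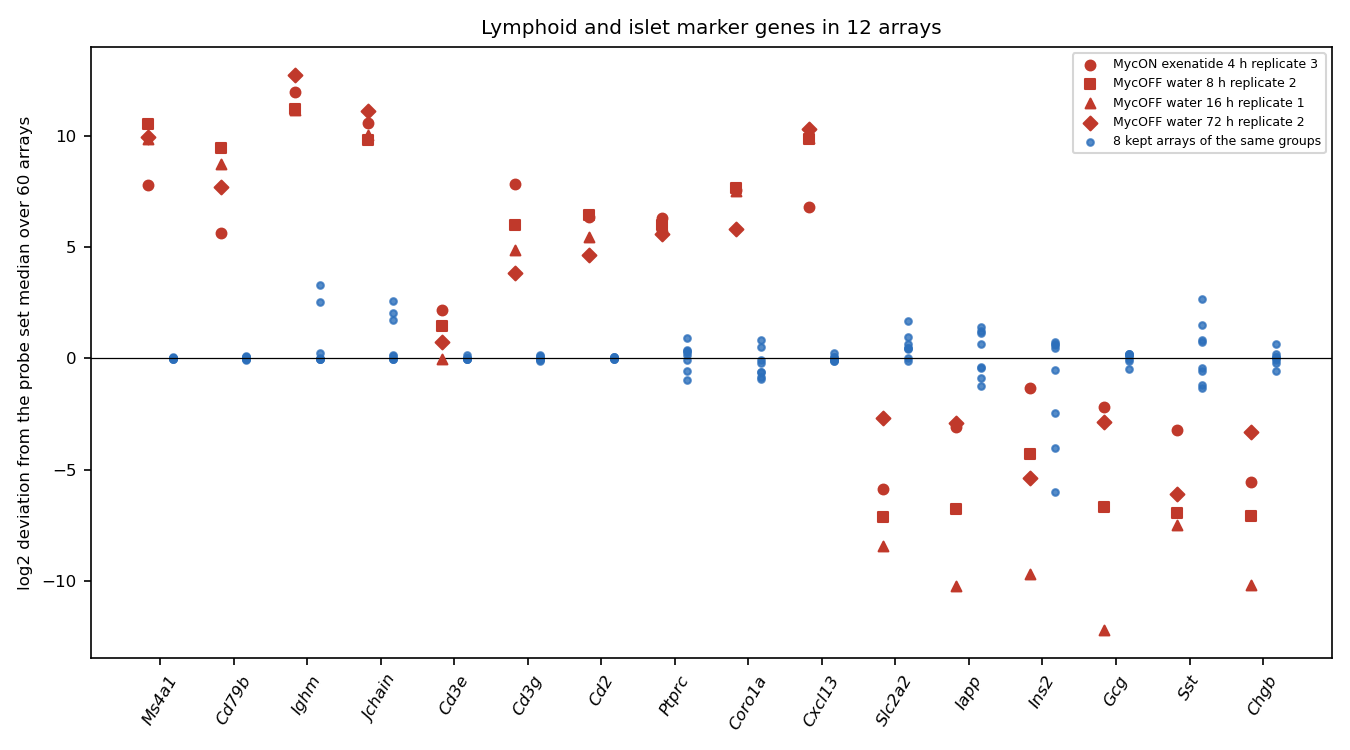
Deviations of 16 marker genes (vertical axis, log2 deviation from the probe set's median over 60 arrays) in the 4 lymphoid arrays (red, 1 symbol for each array, left) and the 8 kept arrays of the same groups (blue, right). Ms4a1 lies at 7.80 or above in every lymphoid array and at 0.05 or below in every kept one, Cd3e reaches only 2.19, and Ins2 overlaps, as the highest lymphoid array at -1.35 lies above 3 kept arrays at -2.43, -4.03 and -6.01.

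B cell genes were higher in all 4 arrays. Of 27 measured genes of the B cell list, 23 were higher and 0 lower, with a median difference of 5.70. The list mean was 3.78 at 4 h, 6.32 at 8 h, 5.80 at 16 h and 4.77 at 72 h, against -0.10 to 0.20 in the 8 kept arrays and -0.15 to 0.39 in the other 44. No array outside the 4 came near their range. In bulk samples, fewer or more cells of a type and less or more RNA per cell cannot be told apart.

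Cd79b, a signalling chain of the receptor, had deviations of 5.65, 9.48, 8.76 and 7.73 in the lymphoid arrays at 4, 8, 16 and 72 h, against -0.06 to 0.13 in the kept arrays (median 0.02). Every lymphoid array was far above the kept ones, the 4 h array least so, and the difference was 7.88 ± 1.72. Its partner Cd79a differed by 3.00 ± 0.77. Bank1, a B cell scaffold protein, differed by 7.98 ± 1.43, and Pou2af1, the coactivator that binds octamer factors on immunoglobulin promoters, by 8.04 ± 0.98. Fcrl1, an Fc receptor-like protein of B cells, differed by 2.40 in the 4 h array and by 8.63, 7.17 and 6.47 in the others.

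A total of 4 B cell list genes were not called. Pou2f2, which encodes the octamer factor OCT2, stayed between -0.03 and 0.12, inside the range of the kept arrays. Pax5, the factor that maintains B cell identity, had 0.91 and 0.90 at 8 and 16 h and -0.00 and -0.01 at 4 and 72 h. Vpreb3, a protein of immature B cells, had 3.69 and 3.38 at 8 and 16 h and -0.00 at 4 and 72 h. Ebf1, a transcription factor of the B lineage, was above 1.00 in all 4 arrays, but its lowest value of 1.18 lay below a kept array at 1.36. A deviation near 0 means the level of the median array and does not say whether the gene was detected there.

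Immunoglobulin promoters are known to carry an octamer that OCT factors bind with the Pou2af1 product. The letters ATGCAAAT, or ATTTGCAT on the other strand, were searched in RefSeq promoters of build GRCm38.p6, from 250 bases before to 50 bases after each gene start. They were found in 532 of 27025 genes with a promoter in the table (1.97%). In the B cell list 2 of 22 genes had a match (9.09%), in the immunoglobulin and plasma cell list 1 of 8 (12.5%), and in the T cell, beta cell and secretory granule lists 0 of 19, 0 of 17 and 0 of 15. Only 8 of the 20 members of the immunoglobulin and plasma cell list had a promoter in the table. That list mixes immunoglobulin and plasma cell genes, so 12.5% is not a figure for immunoglobulin promoters. The 2 B cell promoters with a match are shown because they belong to genes with unlike patterns. The matched octamer is in capitals.
Blnk, chr19:40994172-40994471, minus strand: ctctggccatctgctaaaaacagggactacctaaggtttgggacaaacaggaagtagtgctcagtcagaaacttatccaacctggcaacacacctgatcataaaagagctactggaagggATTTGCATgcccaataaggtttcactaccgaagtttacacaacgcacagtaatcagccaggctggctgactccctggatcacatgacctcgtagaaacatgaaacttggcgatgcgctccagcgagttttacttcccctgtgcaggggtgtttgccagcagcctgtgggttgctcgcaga
Vpreb3, chr10:75948050-75948349, plus strand: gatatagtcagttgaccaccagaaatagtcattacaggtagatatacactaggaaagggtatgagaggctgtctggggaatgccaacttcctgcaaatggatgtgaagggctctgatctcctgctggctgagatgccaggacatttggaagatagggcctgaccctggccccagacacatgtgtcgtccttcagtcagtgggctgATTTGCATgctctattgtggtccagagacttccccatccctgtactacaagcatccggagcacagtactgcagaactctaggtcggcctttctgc
Blnk, an adaptor that passes on B cell receptor signals, was higher in all 4 arrays, with differences of 4.52, 5.82, 5.74 and 5.51. Vpreb3 was higher only at 8 and 16 h among the 4. The match starts 130 bases before the gene start of Blnk and 45 bases before that of Vpreb3. A match describes the letters only and says nothing about binding.

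In the immunoglobulin and plasma cell list 6 of 12 measured genes were higher and 1 was lower, with a median difference of 4.42. The 1 lower gene is a share near the 6.72% of all genes. Jchain, the chain that joins secreted IgM and IgA, had deviations of 10.58, 9.82, 10.05 and 11.12 in the lymphoid arrays, against -0.04 to 2.57 in the kept arrays (median 0.12). The groups did not overlap, and the difference was 9.58 ± 0.83. Mzb1, a chaperone of antibody assembly, differed by 8.52 ± 1.39. Igk and Iglv1, which stand for light chain loci, differed by 8.75 ± 1.84 and 7.33 ± 1.01. Iglv1 is a member of the list and Igk is not. Immunoglobulin segments have near-identical copies that a probe set may not separate, and the least changed probe set of Igk had -0.07 and that of Iglv1 had 0.41.

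Igha, the heavy chain constant gene of IgA, varied most among the immunoglobulin genes. It had 6.24 at 4 h, 9.67 at 8 h, 11.86 at 16 h and 4.98 at 72 h. A kept array of the 72 h group reached 5.40, so the 72 h array differed from its own group by -0.09 and the gene was not called. The plasma cell surface protein gene Sdc1 was high in another array: its deviation was 4.42 at 72 h and at most 0.69 in the other 3. Germinal centre genes showed smaller differences, with 7 of 11 higher, 0 lower and a median difference of 2.21. Lmo2, a transcriptional cofactor, led them at 3.89 ± 0.61.

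T cell genes were higher in a smaller and less even way. Of 26 measured genes 13 were higher and 0 lower, with a median difference of 2.89. The list mean was 5.08 at 4 h, 3.17 at 8 h, 2.49 at 16 h and 1.13 at 72 h, against -0.04 to 0.11 in the kept arrays. The order of the 4 arrays differed from that on the B cell list: the 4 h array was the lowest for B cell genes and the highest for T cell genes. Each treatment and time has 1 lymphoid array, so an array cannot be told apart from its time or treatment.

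Cd2, an adhesion protein of lymphocytes, differed by 6.33, 6.47, 5.43 and 4.61, which is 5.71 ± 0.86. Ets1, a transcription factor of lymphocytes, differed by 5.73 ± 1.14, with the least changed of its 4 probe sets at 0.55. Lef1, a transcription factor of naive T cells, and Lat, the adaptor downstream of the T cell receptor, differed most in the 4 h array and not at 72 h: Lef1 had differences of 5.89, 4.21, 2.11 and -0.00, and Lat had 6.13, 4.16, 3.35 and -0.26. The coreceptor genes Cd4 and Cd8a had differences of -0.00 and 0.19 in the 72 h array. Cd4 had 3.26, 3.01 and 2.87 in the other 3 arrays, and Cd8a had 5.24, 3.35 and 2.62. Cd6, Cd8b1 and Txk differed by 2.90 to 4.29 in the 4 h array and between -0.20 and -0.00 in the other 3.

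**Figure D2:**
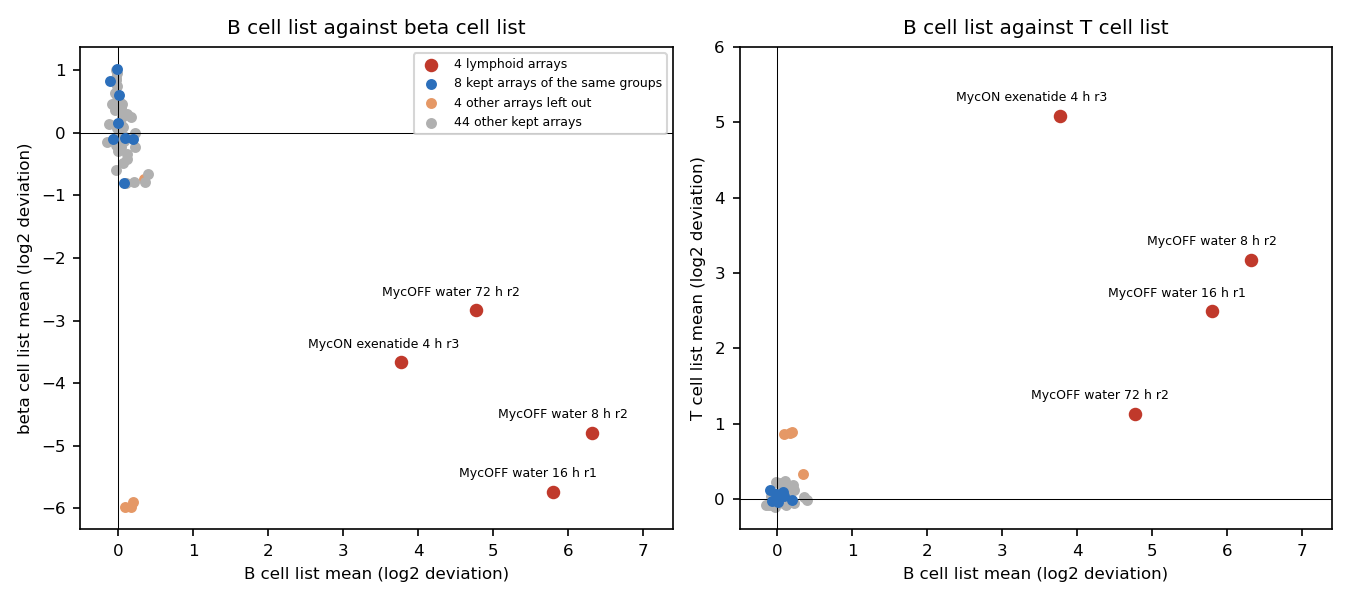
Mean deviation over the 27 B cell genes (horizontal axes, log2) against that over the 20 beta cell genes (left) and the 26 T cell genes (right), 1 point for each of the 60 arrays. The 4 lymphoid arrays (red) lie at 3.78 to 6.32 on the B cell axis while every other array lies at 0.39 or below, and 3 other arrays left out share the low beta cell mean.

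Genes of lymphocyte traffic and of all leukocytes differed less between the 4 arrays. Their list means spanned 2.04 and 1.33 between the highest and the lowest difference, and the T cell list spanned 3.95. In the homing list 13 of 15 genes were higher, with a median difference of 4.66, led by Gpr183 at 6.23 ± 0.67, a receptor that guides B cells. Il7r, the receptor for the survival cytokine IL-7, differed by 6.17 ± 1.42 (3.08 for its other probe set), and Ccr6, a chemokine receptor, by 5.94 ± 0.94. All 22 measured pan-leukocyte genes were higher, from 3.55 for Inpp5d to 8.40 for Cytip, with a median of 5.74. Coro1a, an actin regulator of leukocytes, had deviations of 7.58, 7.68, 7.52 and 5.81 in the lymphoid arrays, against -0.93 to 0.83 in the kept ones (median -0.41). Here the 72 h array was the lowest of the 4 and still far above the kept arrays. For Rac2 and Ikzf1 the probe sets disagreed, since the least changed one had -0.02 and 0.01. The least changed of the 3 Coro1a probe sets had a mean difference of 1.47.

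Antigen presentation and receptor signalling followed. In the MHC class II list 9 of 10 genes were higher, with a median of 3.98, and H2-Ob, a chain of the peptide-loading regulator of B cells, led at 7.84 ± 1.30. H2-Aa, a class II alpha chain, was the exception, with differences of -0.42 at 4 h and 6.25, 4.93 and 5.66 in the others. In the antigen receptor signalling list 11 of 14 genes were higher, against 9.72% of all genes. The 1 lower gene, a share near the 6.72% of all genes, was Itpkb, an inositol kinase, at -1.71 ± 0.54. Syk, the kinase downstream of the B cell receptor, differed by 6.03 ± 1.19, with 1 of its 4 probe sets at -0.05.

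Activation, cytotoxic and precursor genes gave a mixed picture. In the T activation and regulation list 7 of 15 genes were higher. Icos, a costimulatory receptor, had differences of 7.45, 7.30, 7.13 and 5.38, and Cd69, an early activation marker, had 7.15, 6.04, 4.59 and 2.44. The least changed of the 3 Icos probe sets had a mean difference of 1.34. The cytokine genes Ifng, Il4 and Il10 differed by -0.00, 0.02 and -0.03. In the NK and cytotoxic list 3 of 15 genes were higher: Ccl5, a chemokine of T and NK cells, at 6.36 ± 2.13, Klrd1, a lectin-like receptor, at 5.74 ± 0.92, and Nkg7, a granule protein, at 4.57 ± 2.03. Ncr1, a receptor that defines NK cells, stayed between -0.02 and 0.07. In the thymocyte and precursor list 2 of 11 genes were higher, against 9.72% of all genes. The list median difference was -0.04, and the median over all genes was -0.05. Rag1 and Rag2, which rearrange antigen receptor genes in thymus and bone marrow, differed by -0.11 and -0.22, and Foxn1 and Aire, factors of thymic epithelium, by -0.07 and 0.08. As detection cannot be read from deviations, a difference near 0 does not show that a transcript or cell type was absent.

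Over the 11 lists of lymphocytes, leukocytes and antigen presentation together, 116 of 178 genes were higher and 2 were lower, with a median difference of 3.48.

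Cells of other types that live in lymphoid tissue were also read. In the lymphoid stroma list 6 of 16 genes were higher and 1 was lower, the latter a share near the 6.72% of all genes. Cxcl13, the chemokine of follicles, had deviations of 6.82 at 4 h, 9.87 at 8 h, 9.89 at 16 h and 10.30 at 72 h, against -0.12 to 0.26 in the kept arrays (median -0.04). All 4 arrays were far above the kept ones, and the difference was 9.22 ± 1.61. Another kept array of the series reached 6.92. Il33, a cytokine of fibroblastic and endothelial cells, differed by 6.10 ± 1.41, but reached 6.58 in the other 4 left-out arrays and 6.13 in the other 44 kept arrays. Mfge8, a product of follicular dendritic cells, differed by 4.45 ± 0.95.

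Glycam1, a mucin of the high endothelial venules through which lymphocytes enter lymph nodes, had deviations of 10.40 at 4 h, -0.02 at 8 h, 8.27 at 16 h and 4.30 at 72 h, against -0.31 to 0.44 in the kept arrays. The 8 h array lay inside the kept range and the other 3 far above it. Madcam1, an adhesion molecule of mucosal venules, had differences of 4.29, 2.38, 3.48 and 0.64 and was called higher. Lyve1, a receptor of lymphatic vessels and some macrophages, had 3.27, -1.53, 8.70 and 0.42. Fut7 and Chst4, enzymes that modify adhesion ligands in such venules, had mean differences of -0.02 and 0.11.

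In the macrophage list 7 of 15 genes were higher, with a median of 2.59. The list mean was 1.70 to 4.08 in the lymphoid arrays and -0.79 to 0.15 in the kept arrays. It was 1.72 to 2.83 in 3 of the other left-out arrays, and 5 of the other 44 kept arrays lay above 1.70, the highest at 2.65. Marco, a scavenger receptor of marginal zone and medullary macrophages, had deviations of 2.71, 4.00, 10.89 and 6.14, against -0.05 to 0.09 in the kept arrays. The 16 h array was thus by far the highest, and the mean difference was 5.92 ± 3.59, while the other probe set of Marco had 0.46. Lyz2, the lysozyme of myeloid cells, was more even at 5.73 ± 0.45. The complement genes C1qa, C1qb and C1qc lay above their group by 3.51 to 6.27 at 4 and 16 h and by 1.20 to 1.56 at 8 h, and below it at 72 h (-1.30 to -0.19). In the dendritic cell list 6 of 11 genes were higher, led by Fscn1 at 4.63 ± 1.68, with the least changed of its 4 probe sets at -0.02. The erythroid list had 1 of 7 genes higher, against 9.72% of all genes. That gene was Spic, a transcription factor of red pulp macrophages and B cells, at 3.30 ± 0.95. Hba-a1, a globin gene, stayed between -0.03 and -0.01.

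Endocrine genes ran the other way. In the beta cell list 17 of 20 measured genes were lower and 0 higher, with a median difference of -4.80. The list mean was -3.67 at 4 h, -4.79 at 8 h, -5.74 at 16 h and -2.83 at 72 h, against -0.80 to 1.02 in the kept arrays. Every lymphoid array was below every kept one, and the 72 h array was the nearest to them. Low values were not particular to the lymphoid arrays. In 3 of the other 4 left-out arrays the list mean was -5.98 to -5.90, and in the last one it was -0.74.

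Slc2a2, the glucose transporter of beta cells, had deviations of -5.88, -7.12, -8.44 and -2.68 in the lymphoid arrays, against -0.12 to 1.67 in the kept ones (median 0.48). The groups did not overlap, and the difference was -6.60 ± 2.29. Isl1, a transcription factor of all islet endocrine cells, differed by -6.22 ± 2.69, G6pc2, an islet glucose-6-phosphatase, by -5.97 ± 3.38, and Iapp, which encodes amylin, by -5.94 ± 3.21. The least changed of the 4 Iapp probe sets had -2.53. Pdx1, the main beta cell transcription factor, differed by -5.21 ± 1.41.

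Ins2, the gene of insulin 2, did not separate the arrays. It had -1.35 at 4 h, -4.29 at 8 h, -9.70 at 16 h and -5.38 at 72 h, against -6.01 to 0.72 in the kept arrays (median -0.03). One kept array, MycON exenatide 4 h replicate 1, had the -6.01, and the 2 kept arrays of the MycOFF water 16 h group had -2.43 and -4.03. The 4 h lymphoid array was therefore above the mean of its own group by 1.36, while the other 3 were below theirs by 4.98 to 6.47. Among the other 44 kept arrays Ins2 went down to -7.15. Glp1r, the receptor that exendin-4 acts on, stayed between -0.02 and -0.01 in the lymphoid arrays and between -0.07 and 0.05 in the kept ones. Its probe set hardly varied over the series, so it carries no information here.

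The hormones of the other endocrine cells were lower as well. In the alpha, delta and PP cell list 5 of 10 genes were lower and 1 was higher, the latter a share near the 9.72% of all genes. The list mean was -4.24 to -1.39 in the lymphoid arrays and -3.93 to -3.84 in 3 of the other 4 left-out arrays. Gcg, which encodes glucagon, had -2.17 at 4 h, -6.68 at 8 h, -12.23 at 16 h and -2.86 at 72 h, against -0.47 to 0.21 in the kept arrays. The value at 16 h is the furthest from 0 of the 4. Ppy, the pancreatic polypeptide gene, differed by -6.82 ± 1.89, the most negative value among genes called lower. Sst, the somatostatin gene, differed by -6.22 ± 2.05, and Ttr, a transport protein abundant in alpha cells, by -6.50 ± 3.26. The 1 higher gene was Hhex, at 3.70 ± 0.77, a transcription factor of delta cells that B lineage and endothelial cells also use.

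Secretory granule genes were lower to the same extent, with 17 of 22 lower, 0 higher and a median of -4.82. The list mean was -5.04 to -2.48 in the lymphoid arrays and -5.25 to -5.14 in 3 of the other 4 left-out arrays. Chgb, a granin of the granule core, had deviations of -5.57, -7.09, -10.21 and -3.30, against -0.57 to 0.64 in the kept arrays (median 0.03). Scg2, another granin, differed by -6.46 ± 3.01. Over the 3 endocrine and granule lists together, 39 of 52 genes were lower, and the median difference was -4.80. Of 18 endoplasmic reticulum genes 1 was lower, a share near the 6.72% of all genes, and the list median was -0.53. That gene was Ero1b, an oxidase for disulphide bonds, at -4.27 ± 1.49, with the least changed of its 3 probe sets at -0.29.

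Some exocrine and duct genes were lower too. Of 20 acinar genes 5 were lower, with a median of -2.16. The acinar list mean was between -2.51 and -1.43 in the lymphoid arrays and between -0.94 and 1.34 in the kept ones. It was lower still, at -3.12 to -2.99, in 3 of the other 4 left-out arrays. Their duct list means were -1.37 to -1.35, against -2.63 to -1.39 in the lymphoid arrays. Of 10 duct and epithelial genes 4 were lower. Krt8, a keratin of simple epithelia, had -4.78, -8.83, -9.07 and -4.17, against -0.59 to 0.54 in the kept arrays, and differed by -6.64 ± 2.42. In the acinar and duct lists 0 genes were higher. In the endothelium list 1 of 12 genes was lower, a share near the 6.72% of all genes: Flt1, a VEGF receptor, at -3.34 ± 1.17, with the least changed of its 4 probe sets at -0.26.

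**Figure D3:**
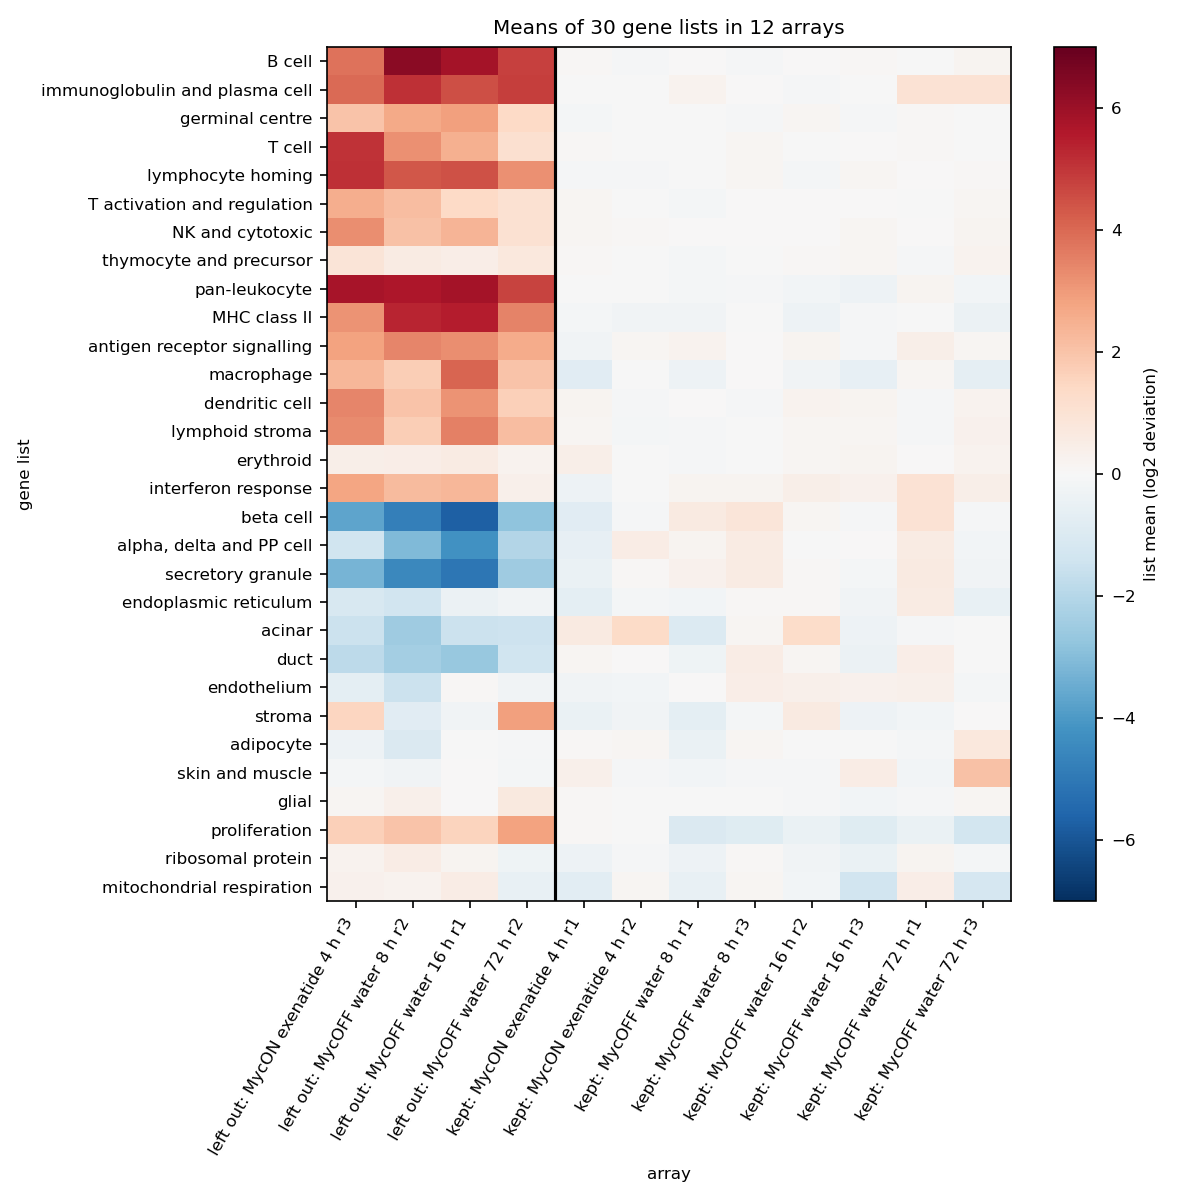
Mean deviation (colour, log2) of each of the 30 gene lists (rows) in the 4 lymphoid arrays (left of the line) and the 8 kept arrays of the same groups (right of it). The lymphocyte and leukocyte rows are above 1.00 on the left except for the thymocyte and precursor row, whose highest value is 0.91, and the beta cell row is at -2.83 or below on the left and at -0.80 or above on the right.

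Genes of cell division were higher in the lymphoid arrays, with 15 of 19 called and a median difference of 2.58. Mcm5, a subunit of the replicative helicase, differed by 4.66 ± 1.71, although its least changed probe set had 0.04, and Pcna, the sliding clamp of DNA replication, had 2.88, 3.99, 4.80 and 3.33. Mki67, a marker of cycling cells, had differences of 2.20 at 4 h, 2.69 at 8 h, 1.29 at 16 h and 5.19 at 72 h. Its highest deviation in the other 44 kept arrays was 5.09, above the 3.90 of the 72 h lymphoid array. The list mean of 1.55 to 2.79 overlapped the rest of the series, as 7 of the 44 other kept arrays were above the lowest of the 4. Ribosomal protein genes (0 of 11 called, median 0.34) and mitochondrial respiration genes (0 of 18 called, median 0.59) did not separate the arrays.

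The 4 arrays resembled each other across genes. The Pearson correlation of their differences over 18193 genes was between 0.71 and 0.82 for the 6 pairs, and the lowest 3 values all involved the 72 h array (0.71, 0.75 and 0.71). This is a description across genes, which are not independent, and the arrays share a platform and a processing. The arrays were also chosen by a shared lymphocyte signal, so a positive correlation follows in part from the choice. Over the 1768 higher genes the median difference was 2.59 at 4 h, 2.46 at 8 h, 2.74 at 16 h and 2.04 at 72 h, and over the lower genes it was -2.15, -2.74, -2.52 and -2.12. The 72 h array had the smallest difference of the 4 in 859 of the 1768 higher genes.

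**Figure D4:**
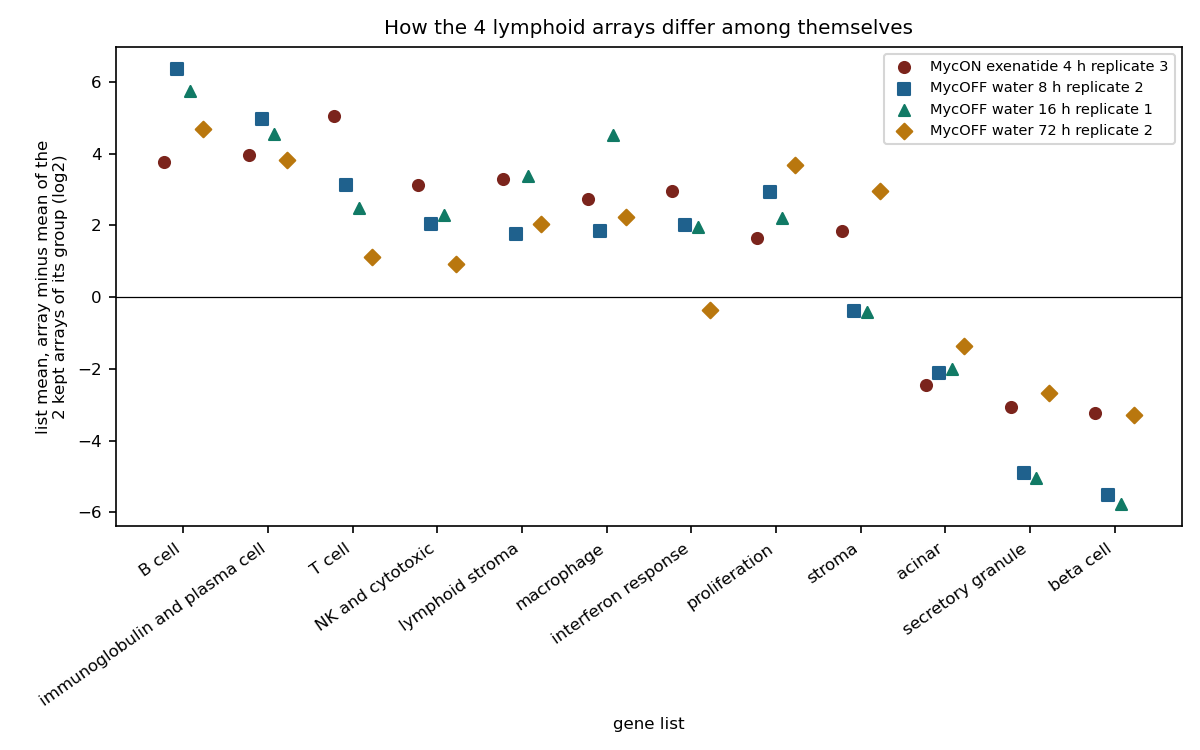
Difference of the list mean in each lymphoid array from the mean of the 2 kept arrays of its group (vertical axis, log2) for 12 gene lists, with 1 symbol for each array. The 4 h array is lowest of the 4 on the B cell list (3.77) and highest on the T cell list (5.05), and the 72 h array is apart on the stroma (2.95) and interferon response (-0.37) lists.

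Each array also had genes of its own, which were picked after their values were seen. In the 72 h array Saa3, an acute phase protein, differed by 10.18 from its group, against at most 4.67 in the other 3 lymphoid arrays. Clec4d, a lectin of myeloid cells, differed by 7.42 there, Chil3, a product of activated macrophages and neutrophils, by 6.41, Arg1, the arginase of such macrophages, by 5.48, and the neutrophil chemokine Cxcl5 by 5.19. Fn1, fibronectin, had differences of 6.66 at 72 h and 4.86, 1.24 and -0.06 at 4, 8 and 16 h, and its deviation reached 6.19 in the other left-out arrays and 4.80 in the other 44 kept arrays. The other probe set of Fn1 had a mean difference of 0.17. Pdgfra, a receptor of fibroblasts, was higher in all 4, at 5.03 ± 1.82, with 1 of its 3 probe sets at 0.23, and its deviation reached 7.08 in the other 44 kept arrays. The stroma list mean was 2.86 at 72 h and 1.48 at 4 h, but -0.78 and -0.26 at 8 and 16 h, against -0.66 to 0.61 in the kept arrays. It was 4.12 to 4.27 in 3 of the other left-out arrays and up to 2.90 in the other 44 kept arrays.

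In the 16 h array Cd209b, a lectin of marginal zone and medullary macrophages, differed by 10.12, Clec4g, a lectin of sinusoidal endothelium, by 6.74, and Cpa3, a mast cell protease, by 5.77. The other 3 arrays had at most 4.30 for Cd209b, 0.66 for Clec4g and 0.04 for Cpa3. In the 4 h array Ccl17, a chemokine of dendritic cells, differed by 5.87 and the T cell receptor segment Trav6-3 by 4.36, against at most 1.01 and -0.02 in the others. In the 8 h array Cxcl11, an interferon-induced chemokine, differed by 3.81, against at most 0.50. The mean of the interferon response list separated the 72 h array from the other 3. It was 2.75, 2.19 and 2.33 at 4, 8 and 16 h and 0.34 at 72 h, against -0.37 to 1.02 in the kept arrays. Not every gene of the list followed this mean. Of 14 measured genes 3 were higher, against 9.72% of all genes, and 1 was lower, a share near the 6.72% of all genes. The 3 higher genes were Psmb8, Psmb9 and Gbp2, with differences of 2.87, 2.40 and 1.03 at 72 h.

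The size of the signal can be read from what 1 lymphoid array would do to a comparison of the study. The MycON minus MycOFF difference of a list mean was computed at the same time and injection with the lymphoid array in its group and again without it. With the lymphoid array included, the B cell list differed by 1.26 at 4 h with exenatide and by -2.04, -1.999 and -1.50 at 8, 16 and 72 h with water. Without it, the same differences were -0.00, 0.08, -0.08 and 0.06. The sign with the array included follows from which group holds it.

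Beta cell genes and cell division genes shifted too. The beta cell list difference between MycON and MycOFF was -1.64, 1.00, 2.14 and 0.29 with the lymphoid array and -0.57, -0.84, 0.21 and -0.81 without it, so that at 8 and 72 h its sign turned. The proliferation list difference was 0.56, 0.99, 2.39 and 0.78 with the lymphoid array and 0.01, 1.96, 3.12 and 2.00 without it. The group of each lymphoid array held 3 arrays with it and 2 without it, against 3 kept arrays of the other MYC state (2 at 16 h), and no test was made.

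Probe sets outside the gene table were counted by the same rule. Of 9160 probe sets with no symbol, 129 were higher (1.41%) and 134 lower, and of 932 with several symbols, 84 were higher (9.01%) and 38 lower. The largest mean difference among the unnamed ones was 10.69.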

How the data were processed

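RNA collected as mouse islet RNA was measured on 60 arrays of an Affymetrix platform. Per the submitters' processing notes MAS5 and GCRMA were used, with no role or version, and the rest of the upstream work is not given in the sources used here. Log2 values were deposited. No source states the base, which was taken from their range (-12.3 to 12.8). Every probe set had a median of 0 over the 60 arrays (100.0%, tolerance 1.0e-04), so the authors' table holds deviations and no levels, and background could not be read. The number of arrays limits the precision.

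Of 45101 probe sets, 34945 had 1 symbol, 932 several and 9160 none, and 64 were controls. Entrez numbers matched 34741 to the RefSeq gene table, and 0 symbols changed. The probe set with the largest SD over the 60 arrays stood for its gene (18193 genes). That SD includes the lymphoid arrays, so the rule favours the probe set that sets them furthest apart and tends to enlarge the differences. No filter on spread was used and values were not rescaled. The counting was tested on simulated data.

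The members and the 30 gene lists (439 of 504 entries measured) were chosen with earlier results of these data known. Genes named were the 3 markers, the first 3 measured genes of the B cell, T cell, beta cell and other endocrine lists, up to 4 leading genes per list, the 12 most positive and 12 most negative genes without overlap, and the 10 lymphoid genes with the widest range. Other genes named were chosen after their values were seen. The analysis used python 3.11.15, numpy 2.4.6, pandas 2.3.3 and matplotlib 3.10.9.

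Alternatives were other scalings, other probe set rules, a filter on spread, all 52 kept arrays, other folds, a replicate block and leaving out each of the 12 arrays. Same-numbered arrays of different groups did not deviate together as a rule. Over 198 pairs from the 12 complete groups the median correlation was 0.03, from -0.55 to 0.44. For differently numbered pairs the median was -0.02. Of the 198 pairs 70 were above 0.1, and a median near 0 does not show that no same-numbered arrays were linked.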

Additional observations from a re-analysis of the deposited data

Results flagged for a closer look

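For each of the 30 gene lists and 136 named genes, the 4 differences were searched for an array far from the other 3, by the gap to its nearest neighbour as a share of the whole range. Of 166 values 7 passed, and about 1 in 20 passes by chance. Of these 7, 5 stood apart in MycOFF water 72 h replicate 2. Its ribosomal protein list differed by -0.32 from its group, against 0.48 to 0.62 in the other 3 arrays (share 0.848), and its skin and muscle list by -1.07, against -0.26 to -0.13 (share 0.855), where 1 kept array of its group had high values. It also had the lowest difference of Icos, 5.38 against 7.13 to 7.45 (share 0.843), and of Cxcl9, a chemokine induced by interferon gamma, -0.23 against 6.43 to 6.87 (share 0.939). Its Ero1b was the nearest to the kept arrays, at -2.05 against -5.29 to -4.86 (share 0.868). In MycOFF water 8 h replicate 2 the endothelium list stood apart at -1.74, against -0.45 to -0.21 (share 0.841). In MycON exenatide 4 h replicate 3 Cxcl13 stood apart at 6.81, against 9.90 to 10.22 (share 0.906). Probe sets that name no single gene took no part in the gene comparisons. Of those with no symbol 129 were higher in the lymphoid arrays, and of those with several symbols 84.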

How the results depend on the processing

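The counts of 1768 higher and 1222 lower genes depended on the scaling and on the arrays compared. Quantile normalization of the 60 arrays, which gives every array the same spread, left 959 higher (942 shared) and 589 lower (583 shared). It lowered the B cell list median from 5.70 to 2.57 and the T cell one from 2.89 to 1.40, and brought the beta cell list median from -4.80 to -2.59. The mean over probe sets, which does not pick the most variable one, gave 1451 higher and 1036 lower genes. Its list medians were 5.10 for B cell, 1.97 for T cell and -3.70 for beta cell genes. Against all 52 kept arrays 865 were higher and 577 lower, since more arrays must not overlap. A 4-fold limit left 1158 and 753. Leaving out 1 array at a time gave 1781 to 2359 higher and 1220 to 1436 lower genes. Fewer arrays must not overlap there, which tends to raise the counts, so they say little about stability. The list medians were 5.27 to 5.94 for B cell, 2.08 to 3.63 for T cell and -5.34 to -4.57 for beta cell genes. With the replicate block 1769 and 1213 genes were called, and no list median crossed 0. The block entered only the mean difference and not the rule on overlap, so its counts say little about the replicate number. Of 2576 values of the named genes under alternatives, 2455 moved by less than 1 SD of the 4 differences and 119 moved further. The latter included 81 of 136 genes after quantile scaling and 28 when probe sets were averaged. All 136 genes moved by less than 1 SD with any of the 12 arrays left out. Leaving out a lymphoid array cannot shift the mean of the 4 differences by their own SD, so those values say nothing about stability. A change of sign was counted only for genes called higher or lower, and 2 values reversed. With the probe set of widest interquartile range over the 52 kept arrays, Rac2 gave -0.0195 and Igk -0.0739. That choice takes another probe set of the same gene.

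The values are deviations, so neither levels nor detection can be read. Each lymphoid array is alone in its group.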
